A study of Mus musculus with 7 samples.

Results

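The genes described are 60 components of the mitotic machinery of the mouse, from the cyclins and kinases that start mitosis to the proteins that part the daughter cells. They were chosen by name, 60 of the 52636 Ensembl genes in the deposited count table, and sorted by function into 10 classes. All 60 matched a row and all 60 passed the filter on low counts. The samples are endothelial cells of mouse liver, isolated by fluorescence-activated sorting, with polyadenylated RNA sequenced in 7 libraries. In 4 libraries the genotype is c-Maf KO, a knockout of Maf, which encodes a basic leucine zipper transcription factor, and in 3 it is Control. No treatment is named for either group. The labels give no age, allele or Cre driver. They do not say whether each library came from a separate animal, so p-values measure the spread between libraries, which may be partly technical.

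Mitosis is driven by cyclin-dependent kinase 1 bound to A- and B-type cyclins, with Polo and Aurora kinases. Chromosomes are compacted by condensin, attached through kinetochores to spindle microtubules and moved by kinesin motors. A checkpoint holds the anaphase-promoting complex, a ubiquitin ligase, inactive until every kinetochore is attached. Most of these genes are transcribed only in cycling cells, late in the cycle, and endothelium of the adult liver is mostly quiescent.

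Total counts lay between 25785691 and 32960007 in KO libraries and between 24772716 and 30415437 in controls. Maf stood at 28.9, 159, 124 and 37.7 CPM (counts scaled to library size, adjusted by trimmed mean of M-values, TMM) in KO libraries 1 to 4, against 1660, 2090 and 2150 CPM in controls 1 to 3. The 10 markers of liver endothelium summed to between 11090 and 17200 CPM in KO libraries and between 31470 and 35430 CPM in controls, with all 10 lower in mean in the KO, 8 of them at adjusted p under 0.05, and the adherens junction gene Cdh5 was at 1200 CPM or more in every library. Control 3 and KO 3 carry lane number 4 in their labels and the other 5 libraries lane number 5.

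The mitotic genes rose in the KO with a single exception. Of 60, 59 rose, 0 fell and 1, the securin gene Pttg1, did not pass (edgeR quasi-likelihood test, Benjamini-Hochberg adjusted p under 0.05 over 15512 genes). The words rose and fell below refer to KO against control at that threshold. Of all genes tested 23% rose and 22.2% fell, together 45.2%. The median fold change of the mitotic genes was 8.62 (log2 3.11, quartiles 2.46 and 3.50), against a median log2 fold change of 0.043 over all genes tested. By size, 31 rose at least 8-fold, 26 between 2- and 8-fold and 2 by less than 2-fold. Among all genes tested 1.68% rose at least 8-fold and 10.5% at least 2-fold. In 59 of the 60 every KO library lay above every control library, which was so in 25.6% of genes tested. In 50.3% of genes tested the groups did not overlap in either direction. These are levels in bulk RNA, in which more cells of a kind and more RNA per cell cannot be told apart.

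**Figure D1:**
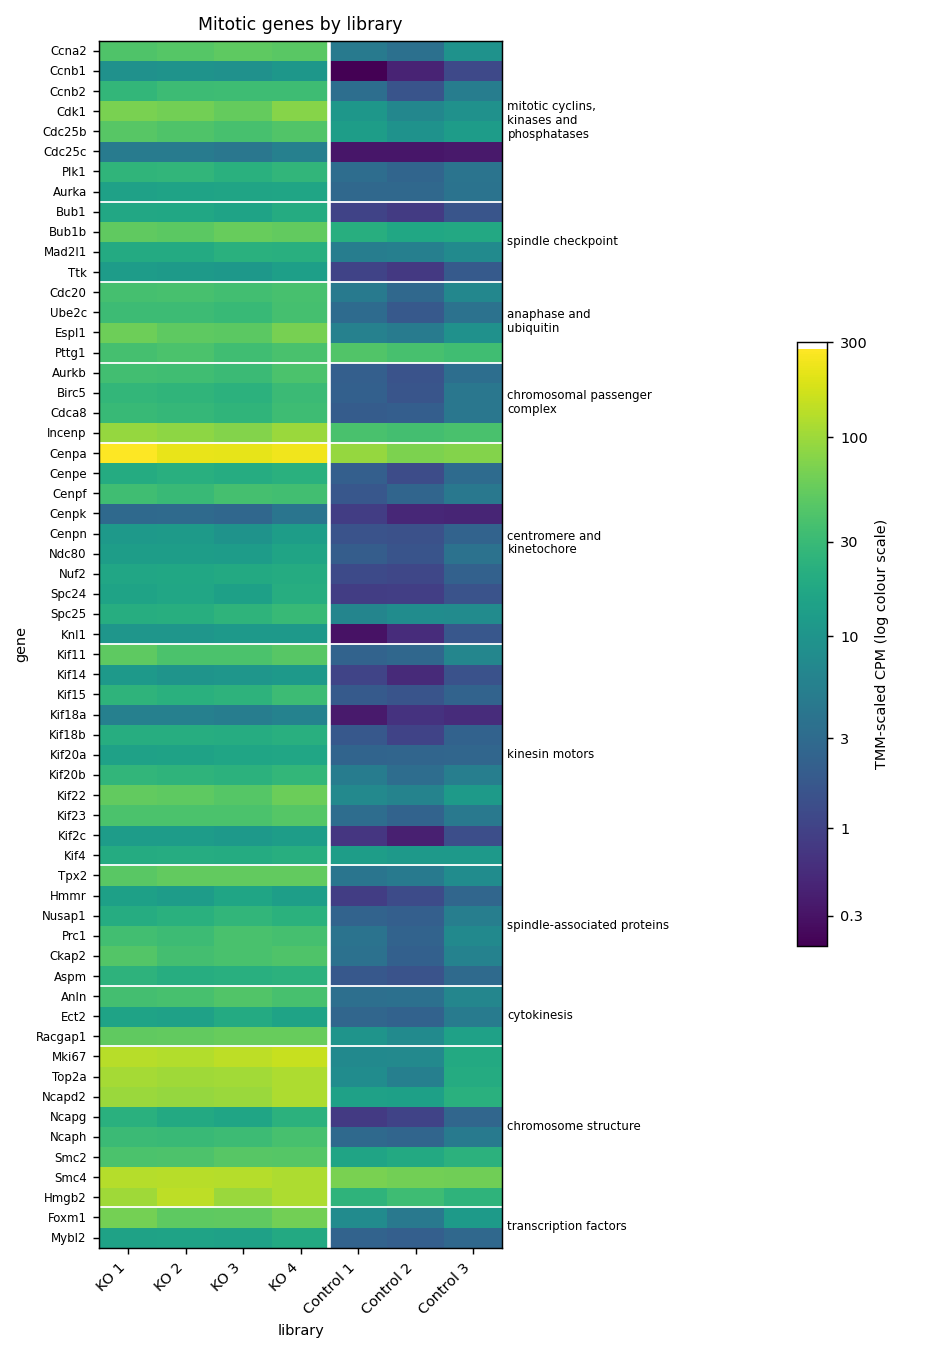
TMM-scaled CPM of the 60 mitotic genes (rows, by class) in 4 KO and 3 control libraries (columns), on a logarithmic colour scale. Every row other than Pttg1 is brighter in all 4 KO columns than in all 3 control columns.

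In the mitotic genes the KO libraries resembled each other closely. Relative to the mean of the controls, the median of the 60 genes was 815, 795, 859 and 864% in KO libraries 1 to 4, against 87.1, 75 and 139% in controls 1 to 3. Summed over the 60 genes, KO libraries held 2417, 2317, 2295 and 2573 CPM and controls 502.3, 438.3 and 579.9 CPM. The coefficient of variation among libraries had a median over the 60 genes of 8.89% in the KO and 35.8% in controls. In the KO no gene differed by more than 1.49-fold between its lowest and highest library. KO 4 was the highest KO library in 38 of the 60 genes. Control 3 was the highest control in 48 and control 2 the lowest in 39. KO 2 and KO 3, which kept more Maf than KO 1 and KO 4, were not set apart from them in the median of the mitotic genes. In the sum they lay lower, at 2317 and 2295 CPM against 2417 and 2573 CPM. A relation of the remaining Maf to these levels was not tested. Control 3 was also the highest control in summed fibroblast and stellate cell markers, at 167.3 CPM against 17.88 and 41.3 CPM. The part of these transcripts in its higher mitotic levels was not tested. Without control 3 the 59 calls remained 59 rises and the median log2 fold change was 3.47.

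Markers of other cell types were also measured. The erythroid list summed to between 6.05 and 40.3 CPM in KO libraries and between 2.85 and 10.7 CPM in controls, most of it haemoglobin, and 0 of the 5 markers tested of 11 rose. All 5 had higher means in the KO, from 2.75-fold for Alas2 to 3.79-fold for Hba-a1 (adjusted p = 0.0798 and 0.0823). Of the markers left out by the filter, Klf1 had 2 to 6 counts in KO libraries and 1 in each control, and Hemgn had 0 in every library. Of 7 haematopoietic progenitor markers, 3 of them tested, 0 rose and 1, Cd27, fell, and Myb had at most 2 counts in any library. Their sum was 7.393 to 9.93 CPM in KO libraries against 14.56 to 16.65 CPM in controls. Of 8 megakaryocyte and platelet markers 5 rose, with a sum of 30.03 to 45.94 CPM in KO libraries against 17.04 to 20.78 CPM in controls. Of 12 hepatocyte markers 7 rose, with sums of 1592, 397.8, 457.9 and 760.5 CPM in KO 1 to 4 against 299.3 to 350.8 CPM in controls. Kupffer cell and macrophage markers numbered 9, of which 0 rose and 1 fell. Their sums overlapped, at 33.73 to 126 CPM in KO libraries and 87.56 to 213.6 CPM in controls. Among 9 stellate cell and fibroblast markers 0 rose and 5 fell. No tested marker of B cells, neutrophils or cholangiocytes rose. The parts of erythroid, megakaryocyte and hepatocyte transcripts in the rise of the mitotic genes were not tested. Without KO 1 and KO 4, the libraries highest in hepatocyte and erythroid transcripts, 59 of the 60 genes rose with a median log2 fold change of 3.09. KO 2 and KO 3, which remained, still lay above every control in the hepatocyte and megakaryocyte sums. That fit therefore does not remove those differences.

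The promoters of these genes are shown because the genes moved together. Mitotic promoters are known for a cell cycle genes homology region, often TTTGAA, bound by the MuvB complex, and for CCAAT boxes bound by NF-Y. In quiescent cells MuvB works with p130 and E2F4 as the repressor DREAM, and in dividing cells with B-MYB and FOXM1, whose genes Mybl2 and Foxm1 are among the 60. Windows of 250 bases before to 50 after the start (RefSeq, GRCm38.p6) were at hand for 51 of the 60 genes. Ccna2, Cdc25c, Aurkb, Incenp, Spc24, Kif20a, Tpx2, Smc4 and Foxm1 had no entry. The 4 windows that follow belong to strongly raised genes that hold both motifs. They are those of Ncapg (chr5:45669675-45669974, plus strand), Ube2c (chr2:164769679-164769978, plus strand), Aspm (chr1:139454523-139454822, plus strand) and Cdk1 (chr10:69352863-69353162, minus strand). The last, of Pttg1 (chr11:43425932-43426231, minus strand), is that of the gene that did not pass and was added after its values were seen. Each is written 5′ to 3′ on the gene's strand, and capitals mark TTTGAA or CCAAT on either strand (TTCAAA or ATTGG when reversed).
Ncapg: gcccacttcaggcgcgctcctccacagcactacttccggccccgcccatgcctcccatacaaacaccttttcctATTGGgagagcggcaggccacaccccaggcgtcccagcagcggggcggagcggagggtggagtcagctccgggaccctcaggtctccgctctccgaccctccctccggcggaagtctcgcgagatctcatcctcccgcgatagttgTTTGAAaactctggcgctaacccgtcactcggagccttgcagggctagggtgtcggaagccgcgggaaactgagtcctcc
Ube2c: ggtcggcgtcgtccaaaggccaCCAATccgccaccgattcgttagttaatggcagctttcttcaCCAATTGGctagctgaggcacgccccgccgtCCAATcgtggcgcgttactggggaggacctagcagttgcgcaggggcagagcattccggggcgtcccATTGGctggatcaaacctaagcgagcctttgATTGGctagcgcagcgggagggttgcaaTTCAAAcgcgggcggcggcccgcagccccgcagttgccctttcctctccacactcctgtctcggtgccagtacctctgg
Aspm: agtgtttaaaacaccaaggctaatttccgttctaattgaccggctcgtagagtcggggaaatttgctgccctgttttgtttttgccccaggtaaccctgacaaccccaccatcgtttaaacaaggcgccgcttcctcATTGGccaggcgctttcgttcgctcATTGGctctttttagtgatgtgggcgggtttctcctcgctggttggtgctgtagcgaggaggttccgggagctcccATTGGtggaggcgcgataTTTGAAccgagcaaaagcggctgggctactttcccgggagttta
Cdk1: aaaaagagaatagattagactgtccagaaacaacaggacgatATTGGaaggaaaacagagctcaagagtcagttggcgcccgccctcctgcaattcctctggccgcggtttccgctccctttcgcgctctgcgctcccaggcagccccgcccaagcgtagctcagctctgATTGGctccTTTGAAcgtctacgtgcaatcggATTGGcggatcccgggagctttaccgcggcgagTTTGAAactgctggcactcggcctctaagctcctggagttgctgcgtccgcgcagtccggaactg
Pttg1: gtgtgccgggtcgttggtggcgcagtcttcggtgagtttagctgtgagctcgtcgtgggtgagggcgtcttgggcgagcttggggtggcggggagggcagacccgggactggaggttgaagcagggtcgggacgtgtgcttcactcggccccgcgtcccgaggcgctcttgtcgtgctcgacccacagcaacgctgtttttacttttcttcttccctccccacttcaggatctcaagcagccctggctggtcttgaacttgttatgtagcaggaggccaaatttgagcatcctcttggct

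TTTGAA occurred on either strand in 38 of the 51 windows, or 74.5%, against 20.2% of all genes in the promoter table and 14.6% of those tested here. CCAAT occurred in 37 of the 51, or 72.5%, against 41.1% and 42.6%. Both motifs were found in 32, or 62.7%, against 8.97% and 7.21%. Neither motif contains the other, and matches of the 2 may overlap. The variant TTTAAA was found in 21.6% of the members' windows, against 14.9% and 11.1%. TGCTGA is only a part of the Maf recognition element. It was found in 25.5% of the members' windows, against 21.7% of all genes and 18.3% of those tested. Within 100 bases before to 50 after the start it was found in 9.8%, against 12.3% and 9.66%. Position differed as well as frequency. In 33 genes a TTTGAA was centred within 50 bases of the start. In the first 50 bases after the start there were 43.6 matches per 100 member windows, against 2.35 in all windows. CCAAT matches were densest just upstream, at 52.7 per 100 member windows in the last 50 bases before the start against 9.98 in all windows. The 38 members with TTTGAA had a median log2 fold change of 3.11 and the 13 without it 3.27. The window of Pttg1 held neither motif, and neither did those of Mad2l1, Birc5, Nuf2, Kif18a, Nusap1, Ncaph and Mybl2, which rose. The window of Birc5 did hold the variant TTTAAA. The start of Pttg1 in RefSeq lies 270 bases inside its start in GENCODE, so its window covers other sequence than a window at the GENCODE start would. In 45 of the 51 genes, bases shortly after the RefSeq start occurred in a GENCODE transcript, so starts of other genes may differ too. A match is a sequence description and does not show binding.

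**Figure D2:**
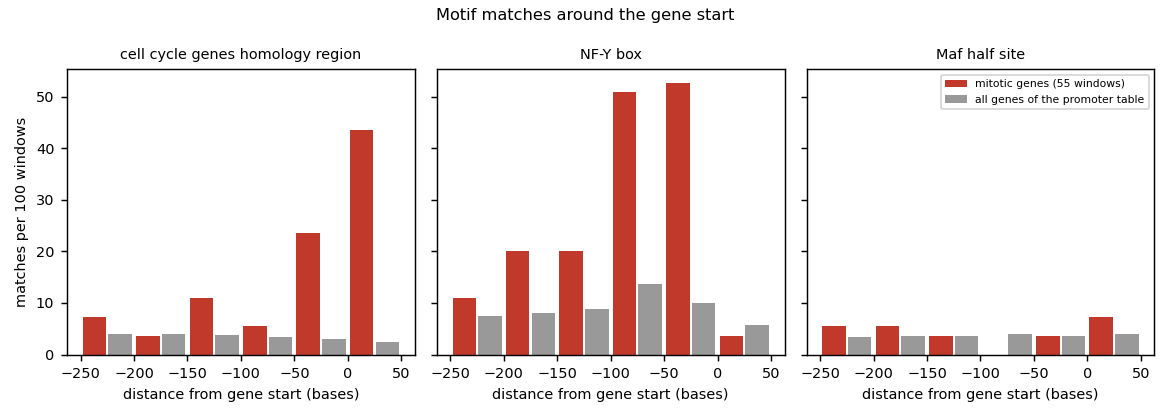
Matches of TTTGAA (left), CCAAT (middle) and TGCTGA (right) on either strand per 100 promoter windows, in bins of 50 bases by distance from the gene start, for 55 windows of 51 mitotic genes and for all windows of the table. The mitotic genes peak at 43.6 for TTTGAA just after the start and at 52.7 for CCAAT just before it, while TGCTGA lies between 0 and 7.27 in the mitotic genes and between 3.31 and 4.07 in all windows.

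The 8 genes of mitotic cyclins, kinases and phosphatases all rose. Ccnb1, which encodes cyclin B1 (chr13:100778650-100786570, minus strand), had the largest estimated rise of the 60, on 5, 11 and 27 counts in controls. The next largest log2 fold change, 3.91 for Spc24, lay within the SE of Ccnb1. Ccnb1 stood at 9.06, 9.51, 9.08 and 10.6 CPM in KO libraries, against 0.182, 0.458 and 1.18 CPM in controls (log2 fold change 4.00, SE 0.444, adjusted p = 0.000161). Its partner Cdk1 had 69.7, 64.6, 54.4 and 78.4 CPM in KO libraries and 10.8, 6.83 and 9.04 CPM in controls (log2 fold change 2.91, SE 0.181, adjusted p = 1.08e-05). The window of Cdk1 above holds 2 TTTGAA and 3 CCAAT matches. The smallest rise of the class was that of Cdc25b, a phosphatase that activates Cdk1, at 46.6, 41.3, 37.6 and 42.4 CPM in KO libraries and 12.8, 9.37 and 12.6 CPM in controls (log2 fold change 1.85, SE 0.133, adjusted p = 2.1e-05). For all 3 genes the groups were far from overlapping. Its relative Cdc25c rose 14.3-fold, though 623 bases of its exons overlap those of another annotated gene. The cyclin genes Ccna2, which shares 510 exon bases with Exosc9, and Ccnb2 rose 7.93- and 9.25-fold, the Polo kinase gene Plk1 7.72-fold and the centrosomal kinase gene Aurka 4.94-fold.

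Spindle checkpoint genes rose in 4 of 4. The kinase gene Bub1 had 17.4, 17, 15.3 and 19.3 CPM in KO libraries against 1.02, 0.833 and 1.62 CPM in controls (log2 fold change 3.90, SE 0.222, adjusted p = 8.13e-06). Bub1b encodes BubR1, an inhibitor of the anaphase-promoting complex. It was already expressed in controls, at 20.9, 17.2 and 17.9 CPM, and KO libraries held 51.2, 49.2, 56.3 and 53.2 CPM (log2 fold change 1.49, SE 0.0983, adjusted p = 1.33e-05). Neither gene's groups overlapped. The kinase gene Ttk, also called Mps1, rose 9.99-fold and Mad2l1, the gene of the checkpoint protein Mad2, 3.37-fold.

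Of the genes that act at anaphase 3 of 4 rose. Ube2c encodes the ubiquitin-conjugating enzyme that starts chains for the anaphase-promoting complex, and its window above holds 6 CCAAT matches and 1 TTTGAA match. It stood at 31.7, 31.3, 29.3 and 36.3 CPM in KO libraries against 3.02, 1.83 and 3.68 CPM in controls (log2 fold change 3.50, SE 0.21, adjusted p = 9.75e-06). Its exons share 592 bases with Tnnc2 on the other strand, which was itself at 0.0455 CPM in the KO and 0.0243 CPM in controls. Espl1, the gene of separase, which cuts cohesin, rose 8.69-fold. The activator gene Cdc20 rose 7.7-fold. Pttg1, whose product securin holds separase inactive, behaved otherwise (chr11:43420250-43426251, minus strand). It had 36.1, 39.7, 33.3 and 38.4 CPM in KO libraries and 42.2, 37.6 and 33 CPM in controls (log2 fold change -0.03, SE 0.105, adjusted p = 0.84). The groups overlapped, and the widest log2 fold change under other scalings was 0.24, with library totals (adjusted p = 0.0931). Per kb of exon, Espl1 averaged 6.47 CPM beside 18.4 CPM of Pttg1 in the KO, and 0.746 CPM beside 18.8 CPM in controls.

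**Figure D3:**
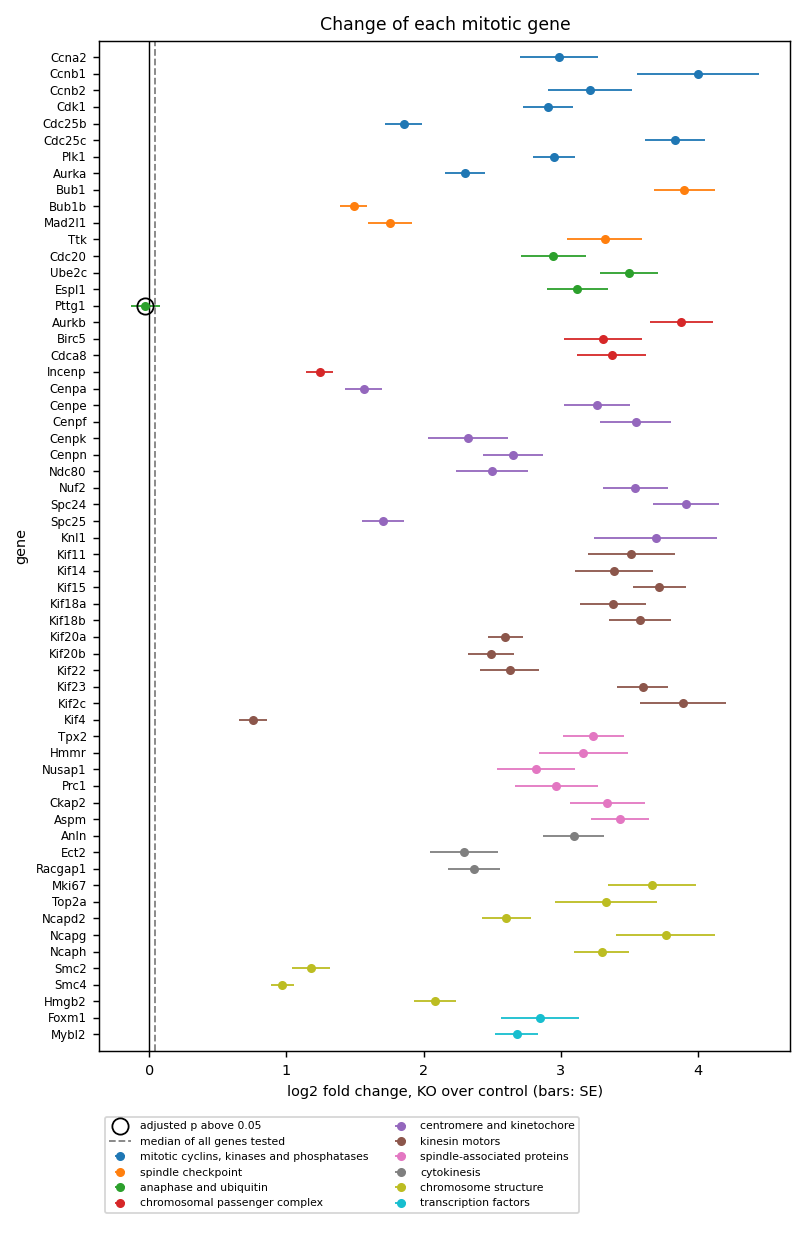
Log2 fold change of each of the 60 genes, KO over control, coloured by class, with bars of 1 SE. The dashed line is the median of all 15512 genes tested. Pttg1, circled, lies at zero and Kif4 is next at 0.76, while the others reach up to 4.00 for Ccnb1.

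The 4 genes of the chromosomal passenger complex, which corrects faulty attachments at the centromere, all rose. Aurkb, its kinase, had 34.1, 33.1, 30.8 and 39.4 CPM in KO libraries against 2.15, 1.54 and 3.33 CPM in controls (log2 fold change 3.88, SE 0.229, adjusted p = 9.45e-06). Incenp, its scaffold, had 92.8, 85.3, 76.6 and 97.7 CPM in KO libraries against 38.7, 35.1 and 38 CPM in controls (log2 fold change 1.24, SE 0.1, adjusted p = 3.37e-05). Both genes separated the groups, but Incenp was the less changed. The targeting subunit genes Birc5, of survivin, and Cdca8, of borealin, rose 9.89- and 10.3-fold.

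The 10 centromere and kinetochore genes all rose, from 2.96-fold to 15-fold. Spc24, of the Ndc80 complex that grips microtubules, had 15.2, 16.4, 14.2 and 20.5 CPM in KO libraries against 0.874, 0.916 and 1.54 CPM in controls (log2 fold change 3.91, SE 0.24, adjusted p = 1e-05). Cenpa encodes the histone H3 variant that marks centromeres. It had the highest CPM of the 60, at 277, 218, 214 and 240 CPM in KO libraries against 93.1, 70.9 and 76.4 CPM in controls, with the smallest rise of the class (log2 fold change 1.56, SE 0.135, adjusted p = 4.49e-05). In neither gene did the groups overlap. Knl1, the platform for checkpoint proteins, rose 12.9-fold, the motor Cenpe 9.62-fold and Cenpf 11.7-fold. Cenpk was among the lowest, at 3.14 ± 0.607 CPM in the KO and 0.619 ± 0.221 CPM in controls (SD, n = 4 and 3).

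All 11 kinesin genes rose, and 7 of them at least 8-fold. Kif2c, the microtubule-depolymerising kinesin MCAK, had 12.6, 12.5, 11.5 and 12.9 CPM in KO libraries against 0.728, 0.416 and 1.36 CPM in controls (log2 fold change 3.89, SE 0.312, adjusted p = 3.29e-05). Kif22, a motor that pushes chromosome arms, had the highest CPM of the class in the KO, at 52.8, 49.4, 45.1 and 58.2 CPM in KO libraries against 7.14, 6.08 and 11.8 CPM in controls (log2 fold change 2.63, SE 0.217, adjusted p = 3.66e-05). Kif4, a chromosome-bound kinesin, stood apart with 19.4, 19.8, 19.7 and 21.3 CPM in KO libraries and 13.1, 11.2 and 11.3 CPM in controls (log2 fold change 0.76, SE 0.1, adjusted p = 0.000415). Its groups did not overlap, but its change was the smallest of the 59. Of its exons 832 of 5514 bases are shared with Pdzd11 on the other strand, a gene at 17.2 CPM in the KO and 18.8 CPM in controls that did not pass (adjusted p = 0.251). Without knowledge of the strand setting, reads of the 2 genes cannot be told apart there. The spindle pole motor Kif11 rose 11.4-fold, Kif15 13.2-fold and Kif18b 12-fold.

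The 6 genes of spindle-associated proteins rose within a narrow range, from 7.05- to 10.8-fold. Aspm, of spindle poles, had the largest rise, at 24.1, 20.3, 21.8 and 23.6 CPM in KO libraries against 1.78, 1.54 and 2.94 CPM in controls (log2 fold change 3.43, SE 0.212, adjusted p = 1.03e-05). Tpx2, an activator of Aurora A, had the highest CPM, at 47.8, 53.2, 53.5 and 52.4 CPM in KO libraries against 3.97, 4.54 and 8.03 CPM in controls (log2 fold change 3.24, SE 0.222, adjusted p = 1.59e-05). Nusap1 had 20, 22.5, 26.3 and 22.7 CPM in KO libraries against 2.4, 2.17 and 5.22 CPM in controls (log2 fold change 2.82, SE 0.286, adjusted p = 1e-04). Control 3 was the highest control in each of these 3, without reaching any KO library. All 3 cytokinesis genes rose as well. Anln, of the contractile ring, had 35.4, 36.9, 42.3 and 37.4 CPM in KO libraries against 3.42, 3.46 and 6.54 CPM in controls (log2 fold change 3.09, SE 0.224, adjusted p = 2.19e-05). Ect2, the exchange factor that activates RhoA at the furrow, had 15.3, 14.3, 19 and 15.3 CPM in KO libraries against 2.62, 2.37 and 4.82 CPM in controls (log2 fold change 2.29, SE 0.248, adjusted p = 0.000139). Racgap1, which binds Ect2, had 52.1, 52.4, 56.5 and 56.2 CPM in KO libraries against 9.98, 7.45 and 14.3 CPM in controls (log2 fold change 2.37, SE 0.19, adjusted p = 3.34e-05). KO and control libraries did not overlap in any of them.

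The 8 genes of chromosome structure all rose, from 1.96-fold to 13.6-fold. Ncapg, a subunit of condensin I, had 22.1, 18.4, 16.2 and 23.4 CPM in KO libraries against 0.801, 1.04 and 2.63 CPM in controls (log2 fold change 3.76, SE 0.362, adjusted p = 7.75e-05). Its exons share 944 bases with Lcorl, which rose, at 26 CPM in the KO and 19.3 CPM in controls, and reads of the 2 genes cannot be told apart there. Smc4, a core ATPase shared by both condensins, had 128, 133, 127 and 120 CPM in KO libraries against 69.8, 63.1 and 61.4 CPM in controls (log2 fold change 0.97, SE 0.0832, adjusted p = 4.35e-05). The ATPase gene Smc2, its partner, rose 2.26-fold. Mki67, of the proliferation marker Ki-67, rose 12.7-fold to 138 ± 11.8 CPM in the KO against 11 ± 6.37 CPM in controls (SD, n = 4 and 3). The topoisomerase gene Top2a rose 10-fold and the chromatin protein gene Hmgb2 4.23-fold. Both transcription factor genes rose. Foxm1 had 65.6, 50.7, 51.5 and 63.8 CPM in KO libraries against 7.75, 4.46 and 11.9 CPM in controls (log2 fold change 2.85, SE 0.283, adjusted p = 9.07e-05). Mybl2, of B-MYB, had 15, 15.2, 14.4 and 18.3 CPM in KO libraries against 2.4, 2.17 and 2.81 CPM in controls (log2 fold change 2.68, SE 0.155, adjusted p = 8.7e-06). All 4 KO libraries exceeded all 3 controls in both.

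Levels per length allow genes to be compared with each other. Mean CPM per kb of annotated exon had a median over the 60 genes of 5.83 in the KO and 0.734 in controls. In the KO it reached from 0.565 for Kif18a to 40.5 for Cenpa, and in controls from 0.0543 for Kif18a to 18.8 for Pttg1. The 6 genes highest per length in controls were Pttg1, Cenpa, Smc4, Hmgb2, Incenp and Bub1b, at 18.8, 13.7, 12.4, 9.04, 8.61 and 4.37 CPM per kb. Their fold changes were 0.98, 2.96, 1.96, 4.23, 2.36 and 2.81, all under the median of 8.62. Across the 60 genes the control level per kb and the log2 fold change had a Spearman rho of -0.7. This is a description across genes, which are not independent replicates, and the control level enters both quantities.

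Subunits of a complex lay closer together in level per length in the KO. In the Ndc80 complex the highest subunit, Spc25, was 3.56 times the lowest, Ndc80, in the KO. In controls it was 9.43 times the lowest, there Nuf2, so these ratios are of different pairs. In the chromosomal passenger complex these ratios were 3.68 in the KO and 15.9 in controls, with Incenp the highest in both. In condensin I they were 8.62 and 58.8, from Smc4 to Ncapg, whose counts carry the overlap with Lcorl. In centralspindlin, the pair of Kif23 and Racgap1 that bundles the midzone, they were 1.48 and 3.48. Between the B-type cyclins, which are not subunits of the same complex, Ccnb2 was 8.89 times Ccnb1 in the KO and 15.1 times in controls. Exon lengths are unions over annotated transcripts, so ratios between genes depend on the annotation and those of the same gene between groups do not. The ratios were not tested.

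**Figure D4:**
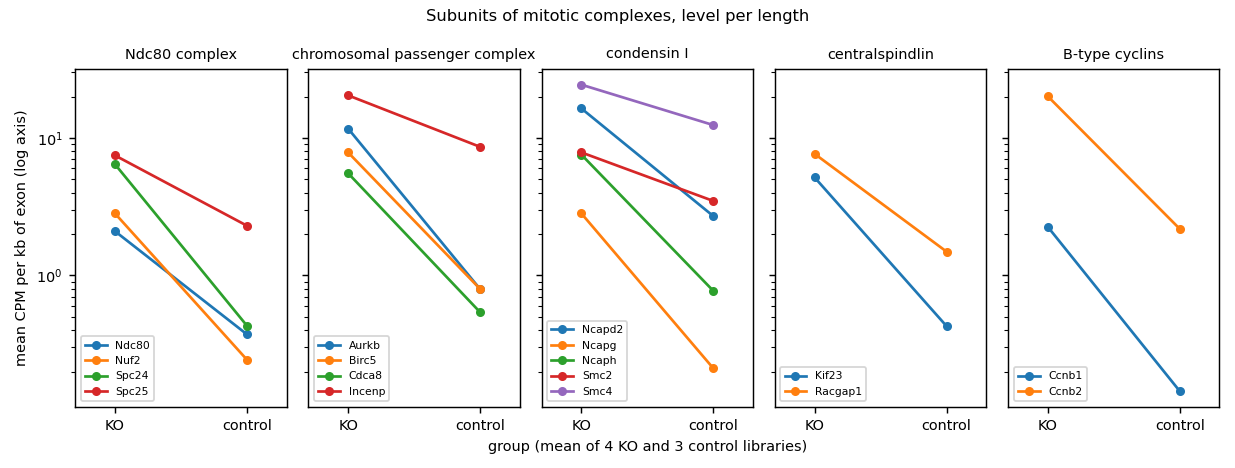
Mean CPM per kb of exon (log axis) of subunits of complexes, and of the B-type cyclins, in 4 KO libraries (left of each panel) and 3 control libraries (right). The lines fan out towards the controls in each panel. In condensin I the highest subunit is 8.62 times the lowest in the KO and 58.8 times in controls.

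A further 151 genes of the same processes, none of them among the 60, changed less uniformly. Of these 81 rose (53.6%), 17 fell (11.3%) and 53 did not pass, with a median log2 fold change of 0.38. Among all genes tested 23% rose and 22.2% fell. The number of falls depended on scaling, at 3 with library totals, and on the libraries, at 5 without KO 1 and KO 4, 8 without control 2, 10 without control 3 or KO 4 and 28 without KO 3. Most kinetochore genes rose. Of 32 other centromere and kinetochore genes 28 rose (87.5%) and 0 fell, with a median log2 fold change of 1.80. The inner kinetochore genes Cenph and Cenpi rose 8.34- and 9.05-fold, while Zwint, at 52.3 ± 1.29 CPM in the KO and 55.9 ± 3.7 CPM in controls, and the checkpoint gene Mad1l1, at 33.2 ± 4.24 and 32.2 ± 1.21 CPM in the same order, did not pass (SD, n = 4 and 3). Mad1l1 passed upward with library totals (adjusted p = 0.0306). Of 16 other mitotic kinases and regulators 12 rose (75%) and 1 fell (6.25%). Cks1b, of a small subunit that binds Cdk1, rose 7.25-fold and Plk4, of centriole duplication, 2.65-fold. Ensa, an inhibitor of the phosphatase that opposes Cdk1, fell 1.2-fold (adjusted p = 0.0309). That call was lost in 11 of the 20 alternatives.

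Genes of the anaphase-promoting complex and of cohesin had medians near that of all genes. Of 17 genes of the anaphase-promoting complex and its co-factors 5 rose (29.4%) and 1 fell (5.88%), with a median log2 fold change of 0.015. The shares among all genes tested were 23% and 22.2%. The inhibitor gene Fbxo5 rose 2.94-fold and the chain-elongating enzyme gene Ube2s 1.66-fold. Anapc15, whose product helps turn the checkpoint complex over, fell 3.54-fold to 18.6 ± 7.32 CPM in the KO against 65.9 ± 24.1 CPM in controls (SD, n = 4 and 3). Rises numbered 9 with library totals and 3 without KO 1 and KO 4, and without KO 2, KO 4, control 2 or control 3 alone. Falls numbered 2 without KO 3. Of 16 genes of cohesin and its regulators 4 rose (25%) and 2 fell (12.5%). The rises were Sgo1 and Sgo2a, which protect centromeric cohesin, 7.98- and 9.49-fold, with Esco2 and Cdca5. The acetyltransferase gene Esco1 fell 1.36-fold and the cohesin subunit gene Stag1 1.28-fold. Both calls were lost with library totals (adjusted p = 0.131 and 0.332) and without KO 1 and KO 4 (adjusted p = 0.0509 and 0.067), and Stag1 also without control 2 (0.0527), while without KO 3 there were 5 falls. With library totals 8 cohesin genes rose.

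Of 31 other spindle and centrosome genes 16 rose (51.6%) and 3 fell (9.68%), against 23% and 22.2% of all genes tested. Tacc3, of spindle microtubules, rose 5.41-fold and Gpsm2, which orients the spindle, 4.79-fold. Clasp2 fell 1.26-fold and Tacc1 1.45-fold. With library totals, or without KO 1 and KO 4, 0 of this list fell, and 1 fell without KO 4, control 2 or control 3. Of 4 other condensin genes 3 rose (75%), among them Ncapg2 3.24-fold and Ncapd3 1.81-fold, both of condensin II. Ncaph2 did not pass, at 107 ± 3.55 CPM in the KO and 103 ± 2.2 CPM in controls (SD, n = 4 and 3). It passed upward with library totals (adjusted p = 0.00499). Of 18 other cytokinesis genes 4 rose (22.2%) and 6 fell (33.3%). Arhgef2 and the citron kinase gene Cit rose 1.63- and 1.95-fold, and the genes Chmp1b and Vps4a, of membrane abscission, fell 1.36- and 1.25-fold. Falls numbered 0 with library totals, 2 without KO 1 and KO 4 and 3 without control 2.

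Of 17 partners of MuvB and E2F 9 rose (52.9%) and 4 fell (23.5%), against 23% and 22.2% of all genes tested. The E2F genes E2f1 and E2f7 rose 5.38- and 4.1-fold. Rbl2, which encodes p130 of the DREAM repressor, fell 1.66-fold to 22.5 ± 3.04 CPM in the KO against 37.5 ± 0.544 CPM in controls (SD, n = 4 and 3; adjusted p = 0.000762). Lin52, a MuvB subunit, fell 1.73-fold to 9.34 ± 1.21 CPM in the KO against 16.1 ± 1.39 CPM in controls (adjusted p = 0.00137). Falls in this list numbered 2 with library totals, without KO 1 and KO 4 together, and without any single library other than KO 2 and KO 3. Without KO 3 they numbered 7.

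**Figure D5:**
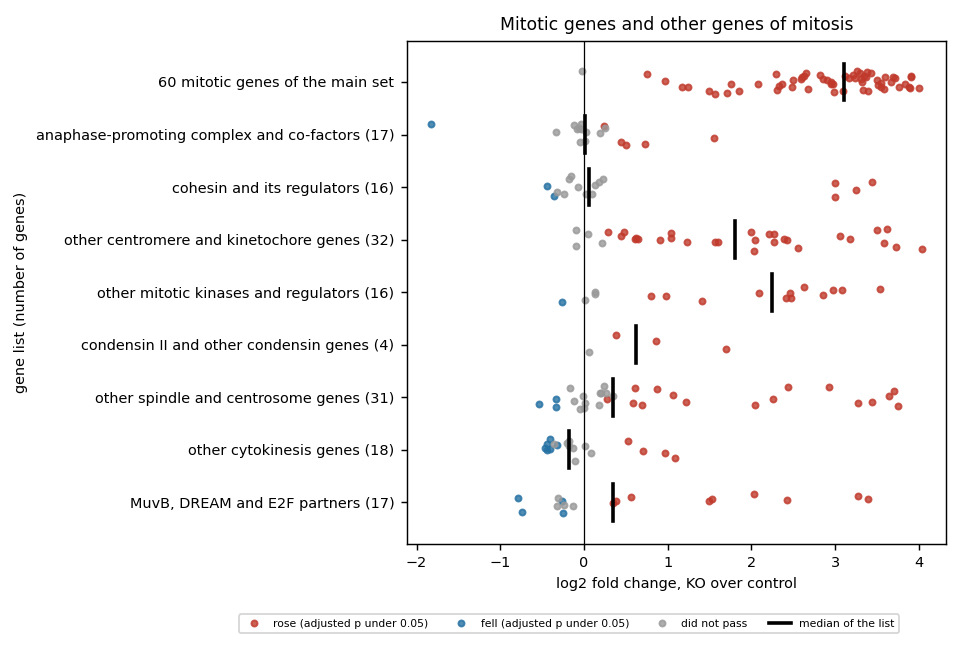
Log2 fold change, KO over control, of the 60 mitotic genes and of 8 lists with 151 other genes of mitosis. Each point is a gene, and the thick line is the list's median. The 60 genes centre on 3.11, the anaphase-promoting complex on 0.015 and cohesin on 0.06.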

How the data were processed

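The authors deposited a table of whole-number read counts, 1 line per Ensembl gene, without normalization. The submitters' processing notes name STAR 2.7.6a, FastQC 0.11.5 and build GRCm38. The labels' protocols name an unstranded and a stranded library kit, without saying which library had which, and no label names the counting tool, its annotation or its strand setting. GENCODE mouse release M21 paired 52403 of 52636 IDs with symbols and gave exon lengths. Of the 60 genes 18 share exon bases with another annotated gene, 7 of them at least 500. Ccnb1, Ccnb2, Kif22 and Kif4 have annotated pseudogenes named after them, and pseudogenes under other names were not searched for. Groups follow the genotype in the labels. In R 4.3.3, edgeR 4.0.16 kept 15512 genes (filterByExpr, minimum count 10, total 15), scaled them by TMM and tested KO against control by the quasi-likelihood test without covariates at adjusted p under 0.05. SE is the log2 fold change over the square root of F. Alternatives were other scalings and filters, DESeq2 1.42.0, limma-voom (limma 3.58.1), a test against a 2-fold change, lane, replicate block and left-out libraries. Libraries of a group differed by more than counting noise in every pair. Over genes tested, chi-square over its degrees of freedom was 26.86 to 108.3 between KO libraries and 14.43 to 31.17 between controls. A limit of 3 counts is 0.0873 to 0.132 CPM per library. It covers counting error only. The fit was also run on simulated counts in which few genes changed, equally up and down. That run does not test the dependence on scaling seen in these data. The genes, lists and motifs were chosen with earlier results of these data known. Values in every library are given for the highest, lowest and most abundant genes of each class and for those that did not pass. Other lists name up to 2 rises and 2 falls by smallest p, or 2 abundant genes that did not pass where none fell. Genes beyond these are given as folds or counts.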

Additional observations from a re-analysis of the deposited data

Results flagged for a closer look

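In 3 of 61 genes examined, the 60 mitotic genes and Maf, a single KO library stood far from the other 3, with a gap to its neighbour that takes up more of the group's range than Dixon's critical value for 4 samples. Chance flags about 1 in 20 such groups. KO 4 was the highest in each. It held 4.04 CPM of Cenpk against 2.71 to 2.93 CPM in the other KO libraries, 15.7 CPM of Ndc80 against 12.7 to 13.1 CPM, and 45.1 CPM of Kif23 against 38.8 to 39.8 CPM. KO 4 also had the largest TMM factor, 1.135 against 1.043 to 1.098 in the other KO libraries. Without KO 4, all 3 genes still rose.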

How the results depend on the processing

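The count of 59 rises and 0 falls among the 60 genes was the same in 19 of the 20 alternatives. The exception, a test against a 2-fold change, passed 55 and not Incenp (adjusted p = 0.0644), Smc2 (0.336), Smc4 or Kif4. The median log2 fold change was 3.23 with upper-quartile factors, 3.37 with library totals, 3.17 with lane as covariate, 3.41 in lane 5 alone and 2.90 to 3.47 without single libraries. Over all genes the median was 0.043 under TMM, 0.169 under upper-quartile scaling, 0.308 under library totals and 0.17 without a filter, and the mitotic genes stood 2.86 to 3.42 above it in every setting. Of all genes, 3561 rose and 3448 fell, so that 50.8% of calls were rises, against 63.4% under upper-quartile scaling and 76.3% under library totals (6373 rises, 1976 falls). Against a 2-fold change 646 rose and 363 fell, and without KO 1 and KO 4 2234 rose. Leaving out single libraries gave 2379 to 3769 rises and 2584 to 3930 falls. Of the other 151 genes 48 rose and 0 fell against a 2-fold change, and 11 fell with upper-quartile factors, 3 with library totals and 5 without KO 1 and KO 4. Without single libraries 73 to 82 rose and 8 to 28 fell. The fall of E2f4, -0.25 on the log2 scale, was lost with library totals, where the estimate was 0.018 (adjusted p = 0.849). The causes were not tested. The replicate block left 59 rises and gave 11 falls among the other genes. Same-numbered libraries correlated at -0.013, 0.162 and 0.067 in their deviations. With so few libraries these values cannot show whether the numbers pair them. In the narrower promoter window TGCTGA was found in 9.8% of the 51 genes. Depth limits the lowest values: Ccnb1 had 5 counts in control 1, near the limit of 3.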

Other observations

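The promoter motif that was frequent in the 60 genes was also more frequent among the other genes of mitosis that rose most. Of 55 of those 151 genes that rose at least 2-fold, 44 had a promoter window, and TTTGAA was found in 20 of them, or 45.5%. It was found in 27.3% of 22 windows of genes that rose less, in 23.3% of 43 windows of genes that did not pass and in 18.2% of 11 windows of genes that fell. CCAAT was found in 65.9%, 54.5%, 39.5% and 54.5% of the same sets. The sets were made by the calls, so these shares are descriptions with no test.

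Within the 60, the rank by level also shifted. Per length, Pttg1 was the highest of the 60 genes in controls and the 7th in the KO, where Cenpa, Hmgb2, Smc4, Incenp, Ccnb2 and Cdc20 stood above it.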
